A study of Saccharomyces cerevisiae with 18 samples.

Results

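The iron uptake genes of budding yeast described here are 10 protein-coding genes, FIT1, FIT2, FIT3, FET3, FTR1, SIT1, ARN1, ARN2, TIS11 and FET4, out of 6002 in the R64 annotation. They were chosen by name, with earlier results of these data known. Their molecules are the sequenced pairs of a 5' and a 3' end that overlap one of these coding sequences on its own strand. That gave 47651 reads over 5245 pairs of ends, out of 21439750 reads in all. The assay was transcript isoform sequencing (TIF-Seq), in which the 5' cap site and the poly(A) site of each single RNA are sequenced together. All cultures were wild type SLS045, a diploid Saccharomyces cerevisiae strain in the S288c background, taken in mid-log phase at an optical density of 1. They grew in YPAD, a rich medium with 1% glucose, or in YPGal, the same kind of medium with 1% galactose. The study compared the transcript ends used in the 2 sugars.

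The standard protocol gave 6 libraries from 2 glucose cultures and 6 libraries from 4 galactose cultures. A protocol that enriches for long molecules gave 2 libraries per medium, all from cultures that were also in the standard columns. A control for polyadenylated molecules without a cap gave 1 library per medium. The libraries of each kind are summed in the table, so there are 6 columns, no spread between replicates and no p-value. Intervals are exact 95% intervals that cover counting error only, and values called reads can include PCR copies of the same molecule, since their collapsing is not stated. Depth in glucose was 6290819 standard, 2745847 long-enriched and 1317650 non-capped reads. Depth in galactose was 6425269, 3559614 and 1100551 reads in the same order. The labels of the media were checked on the galactokinase gene GAL1, which had 0 reads in glucose and 24292 in galactose in the standard columns. The glucose transporter gene HXT1 had 362 and 0 reads in the same columns.

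Yeast takes up iron by 2 high-affinity systems and a low-affinity one. In the reductive system the multicopper oxidase Fet3 and the permease Ftr1 form a complex at the plasma membrane, and in the other system Sit1 and the Arn proteins import iron bound to siderophores, small chelators made by other microbes. The Fit mannoproteins of the cell wall hold siderophore-bound iron near the cell. When iron is scarce the transcription factors Aft1 and Aft2 activate these genes, and Tis11, also called Cth2, binds AU-rich elements in mRNAs of iron-using proteins and promotes their decay.

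The core sequence known for Aft1 binding, TGCACCC, was looked for on both strands in the 500 nt before each start codon. It was found in 10 of 10 iron uptake genes, against 2.33% of all 6002 genes (140 genes). The share describes genes already known to be activated by Aft1 and Aft2, and an enrichment was not tested. The shorter core GCACCC, which the longer one contains, was found in the same window in 7.61% of all genes. The following stretches of 30 nt, read from the R64 reference on the strand of the gene, show 1 copy per gene because the positions of these copies are used below to divide the transcript starts. Capitals mark the core, written GGGTGCA where it lies on the opposite strand.
FIT1 (chrIV:1505065-1505094, minus strand): agttctaggaaaGGGTGCAaaaaaatgaat
FIT2 (chrXV:1059388-1059417, plus strand): acgaatctaactGGGTGCAgtataattagc
FIT3 (chrXV:1061222-1061251, minus strand): cattctaggaaaGGGTGCAaaaaaatgggg
FET3 (chrXIII:388559-388588, plus strand): catcttcaaaagTGCACCCatttgcaggtg
FTR1 (chrV:461898-461927, minus strand): agcgtagatgaaTGCACCCgatttctaagt
SIT1 (chrV:27457-27486, plus strand): gaacacatttgaGGGTGCAatctggttcgt
ARN1 (chrVIII:21214-21243, minus strand): aatttatcaaaaTGCACCCataaaagcagg
ARN2 (chrVIII:10643-10672, minus strand): caatcagaaaatGGGTGCAgttcttagttc
TIS11 (chrXII:416814-416843, minus strand): gcacatgcagttGGGTGCAttgtgccagca
FET4 (chrXIII:914734-914763, minus strand): agccttcttaatTGCACCCattagtttagc

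These are the copies nearest to the start codon, between 128 nt (FIT2) and 444 nt (ARN2) before it. FIT2 has 4 copies in its window, which is the most of the 10 genes. A further pair of copies from the same FIT2 window, 263 and 246 nt before the start codon, is shown because a promoter RNA described below runs across it.
FIT2, farther copy of the pair (chrXV:1059253-1059282, plus strand): gatttaaaacaaTGCACCCtaagttcaaat
FIT2, nearer copy of the pair (chrXV:1059270-1059299, plus strand): cctaagttcaaaTGCACCCcccctcgcccc

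In galactose, 6 of the 8 measured iron uptake genes had higher levels than in glucose, 1 was lower and 1 was neither. The level of a gene was the number of reads that cover its whole coding sequence and no other. Ratios are galactose over glucose after scaling by the trimmed mean of M values. A gene was measured with at least 20 reads in each protocol, and was called higher or lower at 2-fold or more in both protocols with both intervals excluding 1. Among all 3581 measured genes this rule called 6.45% higher (231 genes) and 2.51% lower (90 genes). With scaling by total reads in its place, 351 genes were higher and 56 lower, and the same 6 iron uptake genes were higher and 1 lower. The median log2 ratio of the 8 measured genes was 2.58 with standard and 1.71 with long-enriched reads. Over all measured genes it was 0.02 and 0.01. The iron uptake genes were chosen with earlier results of these data known, so these comparisons with all genes are no independent result. The RNA came from whole cultures, so fewer cells with the RNA and less RNA per cell cannot be told apart.

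**Figure D1:**
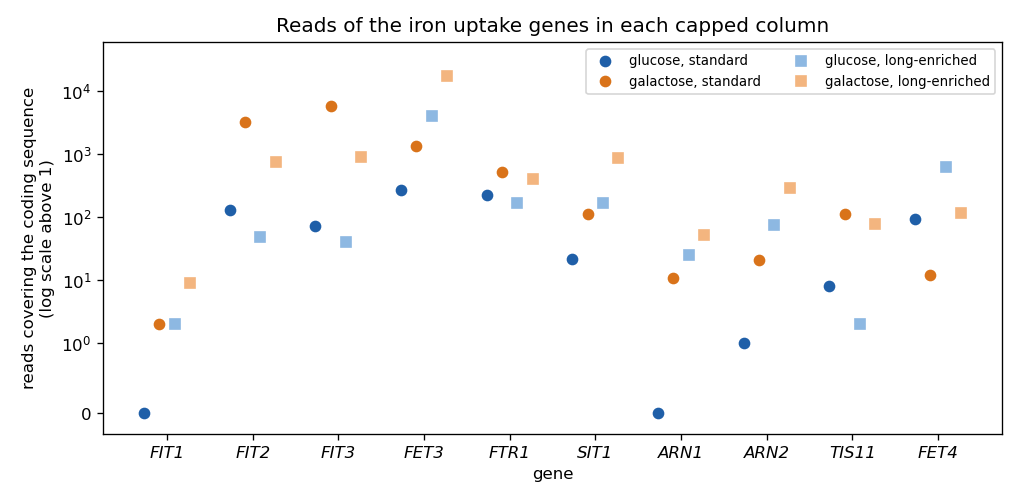
Reads covering each coding sequence in the 4 capped columns, as deposited and not scaled for depth, on an axis that is logarithmic above 1 read; circles are standard and squares long-enriched columns. FIT3 goes from 73 to 5836 reads in the standard protocol, and FET4 goes the other way, from 93 to 12.

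The cell wall genes FIT3 and FIT2 had the largest standard ratios of the measured genes. FIT3 (YOR383C, chromosome XV, 1060441 to 1061055, minus strand) had 73 reads in glucose and 5836 in galactose in the standard columns, and 40 and 896 in the long-enriched ones. Its ratio was 58 (46 to 74.1) by the standard protocol and 15.6 (11.4 to 22) by the long-enriched one. The intervals of the protocols do not overlap, while the direction was the same. The columns also differ in cultures, since the standard galactose column sums 4 and the long-enriched one 2 of them, so protocol and culture cannot be told apart here. FIT2 (YOR382W, chromosome XV, 1059531 to 1059992, plus strand) went from 131 to 3296 reads by the standard protocol and from 48 to 768 by the long-enriched one. That made it 18.3-fold (15.3 to 21.9) and 11.2-fold (8.33 to 15.3) higher in galactose. FIT1 (YDR534C, chromosome IV, 1503314 to 1504900, minus strand) had only 0 and 2 reads in the standard columns and 2 and 9 in the long-enriched ones. It was too sparse to be measured, and its long-enriched ratio of 3.14 had an interval from 0.649 to 29.8. FIT1 and FIT3 are 74% identical over 404 nt, which is below the 90% over at least 80% of the length used to call a near-identical copy, and none of the 10 genes has such a copy.

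The partners of the reductive complex had different ratios by read counts. FET3 (YMR058W, chromosome XIII, 388822 to 390732, plus strand), the ferroxidase, had 267 reads in glucose and 1357 in galactose in the standard columns and 4093 and 17410 in the long-enriched ones. FET3 was thus higher in galactose, 3.69-fold (3.23 to 4.22) by the standard and 2.97-fold (2.87 to 3.07) by the long-enriched protocol. FTR1 (YER145C, chromosome V, 460526 to 461740, minus strand), the permease that works with Fet3, had 224 reads in glucose and 527 in galactose by the standard protocol, and 170 and 402 by the other. Its ratios of 1.71 (1.46 to 2) and 1.65 (1.37 to 1.98) stood above 1 beyond counting error but did not reach 2-fold. The FET3 and FTR1 intervals do not overlap in either protocol. Counted as distinct pairs of ends, the long-enriched log2 ratios were 0.41 for FET3 and 0.43 for FTR1, and the standard ones 1.12 and 0.52. The long-enriched difference was thus seen in reads but not in distinct pairs. A pair already seen cannot be counted again, and FET3 had 298 and 513 long-enriched pairs for its 4093 and 17410 reads. Whether the difference comes from copies of the same molecule was not tested.

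Among the siderophore transporters, SIT1 and ARN2 were higher and ARN1 was not measured. SIT1 (YEL065W, chromosome V, 27657 to 29543, plus strand), the ferrioxamine transporter, had standard counts of 22 in glucose and 111 in galactose, and long-enriched counts of 169 and 880. Its ratios were 3.66 (2.3 to 6.08) and 3.63 (3.08 to 4.31), nearly the same in both protocols. ARN2 (YHL047C, chromosome VIII, 8351 to 10213, minus strand), which imports triacetylfusarinine C, had standard counts of 1 and 21 and long-enriched counts of 75 and 290. It was 15.2-fold (2.45 to 630) and 2.7-fold (2.08 to 3.52) higher, and the width of the standard interval comes from its 1 read in glucose. ARN1 (YHL040C, chromosome VIII, 19088 to 20971, minus strand), a transporter of ferrichrome-type siderophores, had standard counts of 0 and 11 and long-enriched counts of 25 and 53. Taking 3 reads as the floor in place of 0 in glucose, the standard ratio of ARN1 was 2.66. From the counts themselves, ARN1 had a lower interval limit of 1.82 in that protocol. In the long-enriched protocol its ratio of 1.48 had an interval that includes 1 (0.902 to 2.48). ARN1 and ARN2 are 64.4% identical over 1332 nt.

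TIS11 (YLR136C, chromosome XII, 415801 to 416658, minus strand), the mRNA decay factor, had 8 reads in glucose and 113 in galactose by the standard protocol, and 2 and 77 by the long-enriched one. The galactose level was 10.2-fold (5.03 to 24.3) higher by the former and 26.8-fold (7.18 to 226) by the latter. Counting every overlapping read, the TIS11 log2 ratios were 2.30 in place of 3.28 and 2.97 in place of 4.43. Galactose was high in both protocols, and the glucose columns of both held under 10 reads.

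FET4 (YMR319C, chromosome XIII, 912880 to 914538, minus strand), the low-affinity transporter of ferrous iron and other divalent metals, moved the opposite way. It had 93 reads in glucose and 12 in galactose in the standard columns, and 624 and 119 in the long-enriched ones. That made it 10.7-fold (5.83 to 21.4) and 7.52-fold (6.17 to 9.23) lower in galactose. It was the only one of the 8 measured genes with ratios below 1.

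**Figure D2:**
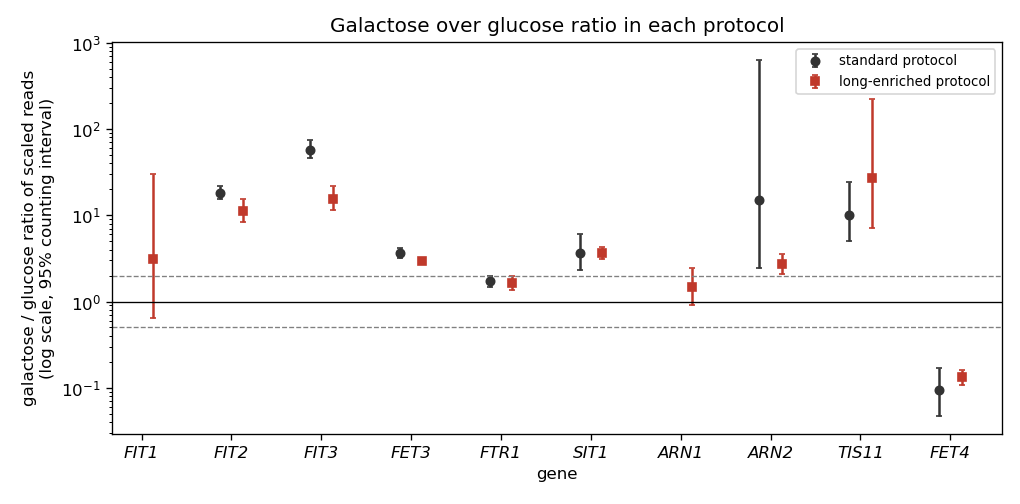
Galactose over glucose ratio of scaled reads for each gene in the standard (circles) and long-enriched (squares) protocol on a log axis, with 95% counting intervals and dashed lines at 2-fold; a standard ratio is not drawn for FIT1 and ARN1, which had 0 glucose reads. FET4 alone lies below 1, at 0.0936 and 0.133, and FTR1 lies between 1 and the 2-fold line.

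Counting each distinct pair of ends 1 time per column, which cannot add to a pair already seen, kept FIT2, FIT3, ARN2, TIS11 and FET4 as called and ended the calls of FET3 and SIT1. The FIT3 log2 ratio was then 3.62 in place of 5.85 with standard reads and 2.14 in place of 3.95 with long-enriched reads. The FIT2 log2 ratio was 2.63 in place of 4.18 and 2.13 in place of 3.47, and the long-enriched one of SIT1 was 0.77 in place of 1.86. ARN2 was no longer measured with a minimum of 50 reads, or when pairs seen under 2 times were left out.

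Other genes of the same pathways were counted beside the 10. Of 20 other genes reported as targets of Aft1 or Aft2, 12 were measured and none was higher or lower, with median log2 ratios of 0.11 and 0.08. ATX1, the copper chaperone that supplies the pathway of Fet3, had 408 and 1069 standard and 85 and 218 long-enriched reads. Its ratios of 1.9 (1.69 to 2.14) and 1.79 (1.39 to 2.33) did not reach 2-fold. ISU1, a scaffold protein of iron-sulfur cluster assembly, had ratios of 0.919 (0.838 to 1.01) and 1.03 (0.868 to 1.21). The core TGCACCC lies upstream of 13 of these 20 genes (65%), and 5 of the 13 were measured. Of 130 genes outside the 10 that have the core, 78 were measured and 10 of them were higher (12.8%) and 1 lower, beside 6.45% and 2.51% of all measured genes.

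Of 10 regulators of the iron regulon, among them AFT1 and AFT2, 7 were measured and none was called (medians 0.22 and -0.09). The vacuolar iron importer gene CCC1 had 330 and 550 standard reads, a ratio of 1.21 (1.05 to 1.39), and the glutaredoxin gene GRX3 a ratio of 0.79 (0.714 to 0.875). None of 14 measured genes of iron-sulfur cluster assembly was called (of 17; medians 0.09 and 0.16), nor any of 8 measured genes of haem synthesis (of 8; 0.35 and 0.23), nor any of 8 measured genes of other metal transporters (of 11; 0.06 and 0.04). In those lists the glutaredoxin gene GRX5 had standard ratio 1.12 (1.07 to 1.17), ISD11 0.927 (0.865 to 0.994), HEM12 1.11 (1.01 to 1.21), the phosphate transporter gene PHO84 0.88 (0.801 to 0.967) and the zinc transporter gene ZRT3 0.896 (0.794 to 1.01). HEM13, which encodes coproporphyrinogen oxidase, was 2.52-fold (2.18 to 2.91) lower in the standard but 1.63-fold (1.31 to 2.02) lower in the long-enriched protocol and was not called.

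Of 13 mRNAs reported as decay targets of Tis11, 11 were measured, 6 were higher in galactose and none was lower, against 6.45% higher among all measured genes. Their median log2 ratios were 1.77 and 1.99. This list too was made with earlier results of these data known. The 6 encode proteins of the respiratory chain. The succinate dehydrogenase subunit genes SDH2 and SDH4 had standard ratios of 8.01 (5.31 to 12.6) and 5.93 (5.57 to 6.31). RIP1, the Rieske iron-sulfur protein, was 7.3-fold (6.17 to 8.7) higher and CYC1, cytochrome c, 5.48-fold (5.04 to 5.97) higher, so these genes were higher in the same columns as TIS11. The octamer TTATTTAT, a form of AU-rich element, was looked for on the sense strand in the 300 nt after the stop codon. It was found in 11 of these 13 genes (84.6%), in 2 of the 10 iron uptake genes and in 6.86% of all genes. The 13 were listed as targets of a factor that binds such elements, so their share describes the list.

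The 2 iron uptake genes with the octamer are FIT1 and TIS11 itself. Its copy in TIS11 lies 46 to 53 nt after the stop codon and is shown with capitals on the octamer.
TIS11, after the stop codon (chrXII:415737-415766, minus strand): actaaactcaaTTATTTATtatttttttct
All TIS11 reads that cover the coding sequence contain it, 8 of 8 and 113 of 113 in the standard columns and 2 of 2 and 77 of 77 in the long-enriched ones. In FIT1 the octamer begins 263 nt after the stop codon, and 1 of its 13 reads contains it.

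FET4 is also known as a gene repressed by Rox1, the repressor of hypoxic genes. Of 10 Rox1-repressed genes other than FET4, 6 were measured, with median log2 ratios of -0.30 and -0.39. Of these, 1 was higher, 1 lower and 4 neither, beside 6.45% higher and 2.51% lower among all measured genes. HEM13, described above with haem synthesis, is among the 4. AAC3, a mitochondrial ADP/ATP carrier gene, was 5.19-fold (3.89 to 7.02) and 4.9-fold (3.26 to 7.57) lower. CYC7, a cytochrome c gene, was 6.96-fold (4.08 to 12.8) and 8.37-fold (2.08 to 73) higher, the latter from 2 and 24 reads. The called genes of the list thus moved in both directions, and most of its measured genes were not called.

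The most used ends of FIT2, FIT3, FET3 and FTR1 were close or the same in both media, and those of ARN1 and ARN2 were not. The most used 5' end of FIT2 lay 17 nt before the start codon in each of the 4 capped columns and that of FIT3 47 nt. FET3 used 55 nt in each, with 60.7%, 64%, 61.3% and 59.4% of its reads at that base, and FTR1 used 21 nt in each. The SIT1 median leader, the stretch from the 5' end to the start codon, was 31 and 29 nt in the standard columns and 31 and 31 nt in the long-enriched ones. The most used 3' end of FIT2 was 94 nt and that of FIT3 200 nt after the stop codon in every capped column. In the long-enriched columns the median leader of ARN1 went from 186 to 38 nt between glucose and galactose, and that of ARN2 from 76 to 34 nt. Their most used 5' ends there lay 340 and 186 nt before the start codon for ARN1 and 781 and 24 nt for ARN2. FET4 starts were more spread, with median leaders of 79 and 108 nt in the standard and 104 and 79 nt in the long-enriched columns. The most used capped 5' end was a purine after a pyrimidine in 98.3% of 2341 plus-strand genes and 96.9% of 2288 minus-strand genes, so the positions are counted from 1.

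The share of FTR1 reads at its most used standard 3' end was larger in the standard than in the long-enriched columns of both media. The end 100 nt after the stop codon held 32.6% (26.5 to 39.2) and 35.7% (31.6 to 39.9) of FTR1 reads in the standard columns. In the long-enriched columns it held 6.47% (3.27 to 11.3) in glucose and 12.7% (9.59 to 16.3) in galactose, and the most used end was 128 nt after the stop codon.

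Mean lengths of the untranslated regions (UTRs) were compared for the 5 genes that reached 20 covering reads in every capped column, FIT2, FIT3, FET3, FTR1 and SIT1. A shift meant a difference of 20 nt or more, with the same sign in both protocols. FIT3 and SIT1 had shorter mean 5' UTRs in galactose, where 1.28% of 2666 genes did so and 1.13% had longer ones. The mean for FIT3 fell between glucose and galactose from 89.8 to 45.5 nt in the standard columns, and from 522 to 60.8 nt in the long-enriched ones. The SIT1 mean was 71.2 and 33.1 nt, then 62.8 and 33.5 nt. None of the 5 genes had a shifted 3' UTR, which was shorter in 1.16% and longer in 0.15% of all genes. Medians showed no shift. Over reads with both UTRs of at most 500 nt, the FIT3 means were 52.7 and 45.5 nt, then 50.4 and 45.5 nt, so the FIT3 shift rests on a few molecules with longer leaders. The SIT1 means over such reads were 71.2 and 33.1 nt, then 50.9 and 33.5 nt, which is under 20 nt apart in the long-enriched columns.

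Those molecules were followed by dividing the reads at the copy of the core nearest to the start codon, a division chosen after the ends were seen. Over the 10 genes, reads that start before it numbered 13 in glucose and 11 in galactose in the standard columns and 69 and 64 in the long-enriched ones. Reads that start after it went from 806 to 11275 and from 5179 to 20840. FIT3 had 5 and 6 standard and 11 and 7 long-enriched reads from before its copy. Their ratios of 0.87 (0.221 to 3.61) and 0.444 (0.146 to 1.25) compare with 62.2 (49 to 80.2) and 21.4 (14.8 to 32.1) for FIT3 reads from after it. With a leader limit of 100 nt in place of the core, long-leader FIT3 reads went from 5 to 28 in the standard columns (4.06, 1.55 to 13.5) and from 12 to 11 in the long-enriched ones (0.639, 0.255 to 1.58). The standard difference for long-leader FIT3 molecules thus depended on where the reads were divided.

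From before its copy, SIT1 had standard counts of 4 and 0 and long-enriched counts of 16 and 8. The long-enriched ratio of these SIT1 reads was 0.349 (0.129 to 0.863), against 3.97 (3.34 to 4.75) for those from after it. ARN1 had 11 and 5 long-enriched reads from before its copy and 14 and 48 from after it, with ratios of 0.317 (0.0863 to 0.989) and 2.39 (1.3 to 4.69). ARN2 had 25 and 34 from before and 50 and 256 from after, with ratios of 0.948 (0.549 to 1.66) and 3.57 (2.63 to 4.94). In each of these 4 genes, chosen after their values were seen, the intervals for both kinds of start do not overlap in the long-enriched protocol. With a leader limit of 100 or 150 nt in place of the core, that held for 3 of the 4. FIT2 had 2 and 0 long-enriched reads from before its copy (0, 0 to 3.71), against a ratio of 11.6 (8.64 to 16) after it. FET4 had 3 and 0, with ratios of 0 (0 to 1.69) before and 0.134 (0.109 to 0.163) after its copy, and these intervals overlap. FET3 and TIS11 had 0 reads from before their copies in the 4 capped columns. FTR1 had 0 and 0 standard and 1 and 6 long-enriched ones, with a long-enriched ratio of 4.18 (0.507 to 192), and FIT1 had 0 and 1 standard and 0 and 4 long-enriched ones. In these 2 genes the few reads from before the copy were thus not fewer in galactose. ARN1, whose most used capped 5' end lies 186 nt before the start codon, has 4 ATG triplets in that leader, and the other 9 genes have 0 in theirs.

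**Figure D3:**
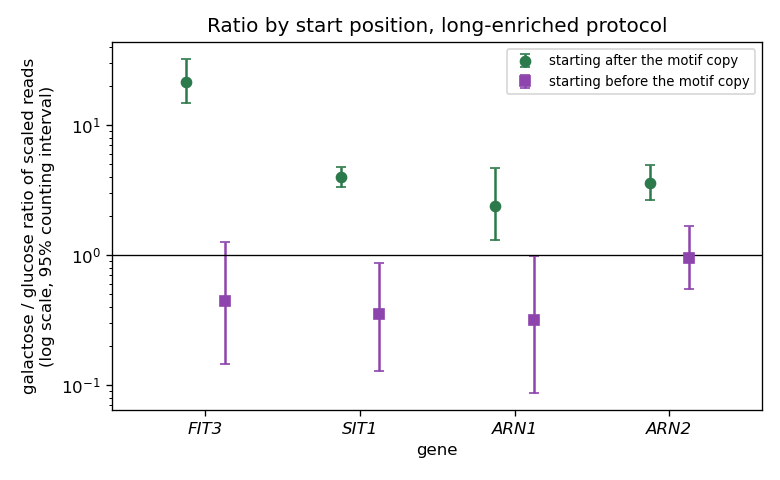
Galactose over glucose ratio of scaled long-enriched reads on a log axis, with 95% counting intervals, for molecules that start after (circles) or before (squares) the copy of the core nearest to the start codon. Only FIT3, SIT1, ARN1 and ARN2 are drawn, which were chosen after their values were seen. In these genes, molecules starting after the copy have ratios from 2.39 to 21.4 and those starting before it from 0.317 to 0.948. Some genes not drawn lie outside these ranges, among them FTR1, with 1.63 after and 4.18 before its copy, and FET4, with 0.134 after.

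FIT2 had a related kind of molecule that did not reach the end of the gene. Reads that overlap the FIT2 coding sequence but lack its 3' part numbered 30 in glucose and 39 in galactose in the standard columns, and 12 and 16 in the long-enriched ones. Their ratios were 0.943 (0.571 to 1.57) and 0.93 (0.413 to 2.15), beside 18.3 and 11.2 for full-length FIT2. All 97 of these reads started more than 150 nt before the start codon, 55 of them at chromosome XV position 1059214, which is 317 nt before it. Their median end lay 21 nt into the coding sequence. The pair of adjacent FIT2 copies shown above lies after that start, so such molecules contain it. Over all 135 capped reads that start within 20 nt of this position, 50 ended before the FIT2 start codon, 79 inside the coding sequence and 6 past the stop codon. As a share of FIT2 reads, those lacking the 3' part were 18.1% (12.5 to 24.8) and 1.15% (0.817 to 1.57) in the standard columns. In the long-enriched columns they were 18.8% (10.1 to 30.5) and 2.01% (1.15 to 3.24).

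FIT2 and FIT3 lie end to end and are read toward each other. Their coding sequences are 448 nt apart, and their most used 3' ends leave 154 nt between them. Of 4243 FIT2 reads 1 reached past the most used FIT3 end, and of 6845 FIT3 reads 6 reached past that of FIT2.

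On the strand opposite to FET4, molecules were more frequent in galactose. The reads overlapping FET4 in antisense numbered 6 in glucose and 74 in galactose in the standard columns, and 18 and 148 in the long-enriched ones. They were 8.95-fold (3.92 to 25.2) and 5.73-fold (3.5 to 9.94) higher, and 3.37% of 1157 genes with enough antisense reads were higher by the same rule. None of these reads covered another coding sequence. Of the antisense reads and the sense reads covering FET4 together, the antisense share was 6.06% (2.26 to 12.7) in glucose and 86% (76.9 to 92.6) in galactose in the standard columns. In the long-enriched columns it was 2.8% (1.67 to 4.4) and 55.4% (49.2 to 61.5). The antisense reads needed only to overlap FET4, while the sense reads had to cover it. Sense reads that overlap any part numbered 229 and 41 in the standard and 788 and 151 in the long-enriched columns. With these in place of the covering reads, the antisense shares would be lower. Sense and antisense thus moved in opposite directions in both protocols.

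The 246 antisense reads began at a median of 370 nt beyond the FET4 stop codon, and 146 of them (59.3%) ran past the FET4 start codon. Their most used end, chromosome XIII position 914750 with 70 reads, lies 212 nt before the start codon and inside the FET4 stretch printed above. Of the other genes, SIT1 had 21 and 18 standard and 69 and 73 long-enriched antisense reads, most of which covered another coding sequence, and was not called. FTR1 had 14 and 1 standard and 6 and 1 long-enriched antisense reads. ARN1, ARN2 and FIT1 had 0 in all capped columns, and FIT2, FIT3, FET3 and TIS11 from 0 to 23 per column.

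**Figure D4:**
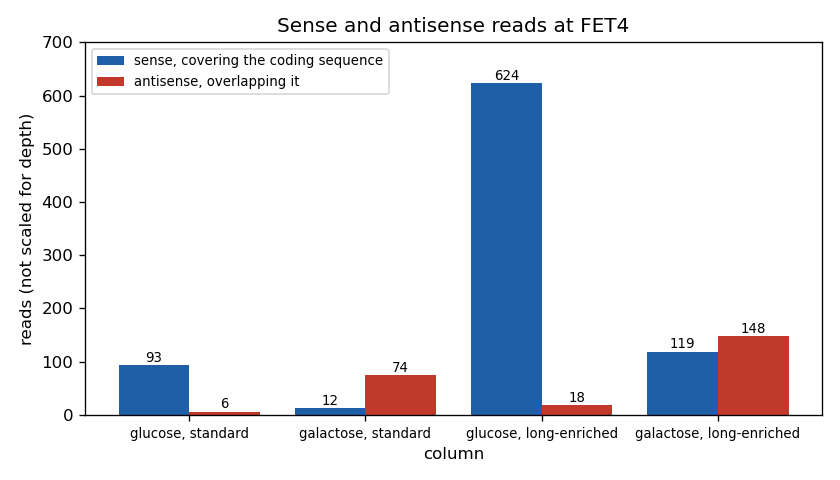
Reads at FET4 in the 4 capped columns, not scaled for depth: sense reads that cover the coding sequence and antisense reads that overlap it. Sense reads fall from 93 to 12 and from 624 to 119 between glucose and galactose, while antisense reads go from 6 to 74 and from 18 to 148.

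Isoforms were counted as the expected number of distinct pairs of ends among 50 reads. The medians over all genes were 29.4 and 29.7 in the standard and 31.4 and 32 in the long-enriched columns. FET3 had 18.8 and 20.7, then 22.6 and 21.7, below the lower quartile of all genes in each column. FIT2, with 19.6 and 23.1 in the standard columns, was also below it. ARN2, with 43.4 and 45.6 in the long-enriched columns, and FET4, with 36.3 in the glucose standard column and 39.9 and 39.8 in the long-enriched ones, were above the upper quartile. FTR1 had 22.3 and 26.5, then 27.5 and 27.4. FIT3 had 26.7 and 29.4 in the standard columns, and SIT1 33.5 and 29.4 in the long-enriched ones. In the standard columns all 4 genes with enough reads in both media, FIT2, FIT3, FET3 and FTR1, had more isoforms in galactose. In the long-enriched columns the genes with enough reads were FET3, FTR1, SIT1, ARN2 and FET4, and 1 of these 5, ARN2, had more. FTR1 and FET4 were nearly equal in both media there. Only FET3 and FTR1 are in both sets, so the counts do not compare the protocols on the same genes. The same count over all genes is not given here, and these isoform numbers have no interval.

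The share of reads lacking the 5' part of the coding sequence was larger in the standard than in the long-enriched columns for most genes with enough reads. For FET3 it was 36.9% (32.3 to 41.7) in glucose and 47.8% (45.9 to 49.8) in galactose in the standard columns, and 4.17% (3.59 to 4.81) and 5.13% (4.82 to 5.46) in the long-enriched ones. SIT1 had 43.9% and 62.9% in the standard and 7.81% and 10.1% in the long-enriched columns. FET4 had 50.2% and 61%, then 14% and 15.9%. The standard share was the larger in both media for 5 of 6 genes with at least 20 overlapping reads in each capped column, all but FIT2. The medians over all genes went the same way, with 27.3% and 27.9% in the standard and 9.62% and 8.74% in the long-enriched columns. How many of all genes had the larger standard share in both media is not given here. FIT2 and FIT3, with the shortest coding sequences of the 10 at 462 and 615 nt, had 3.01% and 1.85% and 14.1% and 1.59% in the standard columns.

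In TIS11 this share was larger in glucose. It was 69.2% (48.2 to 85.7), or 18 of 26 reads, in glucose and 36.9% (29.8 to 44.4), or 66 of 179, in galactose in the standard columns. In the long-enriched columns it was 75% (34.9 to 96.8), or 6 of 8, and 18.1% (10.9 to 27.4), or 17 of 94. The intervals do not overlap in either protocol. In the capped columns the 5' ends inside FET3 were spread over 841 positions, and the most used held 133 of 2521 reads. Whether these molecules began at a cap site was not tested.

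**Figure D5:**
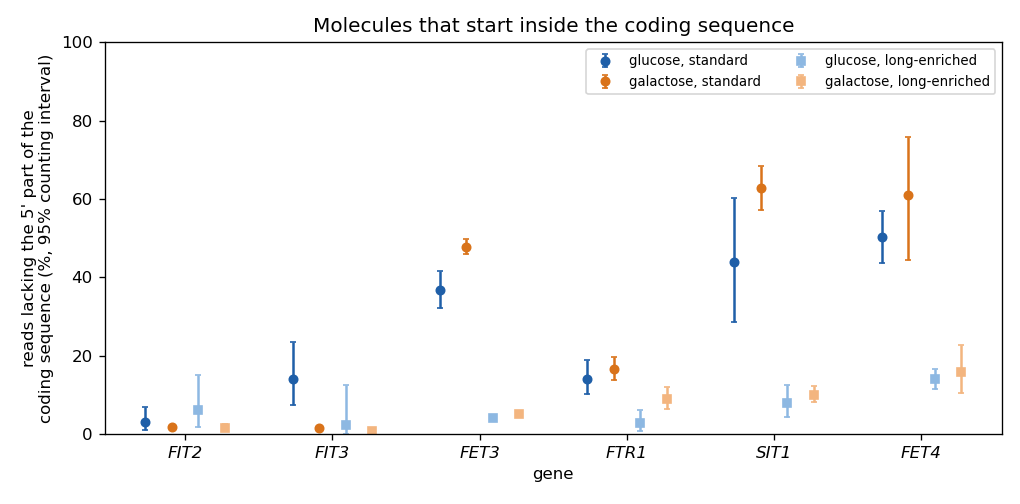
Share of same-strand reads that lack the 5' part of the coding sequence, in percent with 95% counting intervals, for the 6 genes with at least 20 overlapping reads in each capped column. For FET3, SIT1 and FET4 the standard columns (circles, 36.9% to 62.9%) lie above the long-enriched ones (squares, 4.17% to 15.9%).

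In the non-capped control, 93.8% of the reads at the 10 genes lacked the 5' part of the coding sequence in glucose and 92.5% in galactose, beside 90.3% and 89.3% over all genes. The 5' end lay within 50 nt of the most used capped 5' end for 1.73% and 7.73% of non-capped reads, and for 61% and 84.8% of standard reads. Within 10 nt the non-capped shares were 1.58% and 1.38%, so the galactose share was then the lower one. The control held few molecules, 135 pairs for 1327 reads in glucose and 146 pairs for 3973 in galactose. Non-capped reads were more frequent in galactose for FIT3, with 29 and 662 reads and a ratio of 26.6 (18.3 to 40), and for FET3, with 467 and 2494 and a ratio of 6.21 (5.62 to 6.87). FTR1 had 51 and 236 (5.38, 3.96 to 7.44), SIT1 99 and 415 (4.88, 3.91 to 6.13), FIT2 21 and 97 (5.37, 3.33 to 9.07) and ARN1 7 and 25 (4.15, 1.75 to 11.4). These reads lay on few pairs of ends. In glucose and galactose FIT3 had 7 and 25 pairs, FET3 39 and 84, SIT1 5 and 18 and FIT2 3 and 6. FTR1 had 12 and 7 pairs and ARN1 2 and 2, so neither had more pairs in galactose. The part of repeated pairs in these ratios was not tested. TIS11 had 0 and 10 reads and FIT1 none. FET4 had 554 reads over 63 pairs in glucose and 0 in galactose, the same direction as its capped reads.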

How the data were processed

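The deposited values are whole-number counts, given for every listed combination of 5' and 3' position. They are called reads here, but the sources used here do not state whether copies of a molecule were collapsed. Per the file headers and a note by the authors, each column adds up libraries made in the same way. Build R64 and the tools Novoalign 2.07.10 and CASAVA appear in the submitters' processing notes. The counter and the filters are likewise not stated. Of the count columns 6 were used and 0 not.

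Reads were assigned by strand to 6002 protein-coding genes of the R64 RefSeq annotation. Because the columns are sums, the edgeR quasi-likelihood test planned for single libraries could not be run, and a rule on ratios and counting intervals took its place. The standard galactose column sums cultures 1 to 4, and the long-enriched one only 1 and 4. Scaling used the trimmed mean of M values (edgeR 4.0.16, R 4.3.3), with DESeq2 1.42.0 size factors as an alternative. Ratio intervals are exact Poisson, shares have exact Clopper-Pearson intervals, and log2 ratios used 0.5 reads as pseudocount. Levels were not compared between genes, whose coding lengths differ. Copies were sought with blastn 2.17.0. Scripts ran in Python 3.11.15 with scipy 1.17.1, numpy 2.4.6, pandas 2.3.3 and matplotlib 3.10.9.

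The genes and lists were chosen with earlier results of these data known. All 10 genes are named. Of each other list up to 4 called genes with the largest standard ratio are named, or 2 abundant ones where none was called. The genes of the start division, the FIT2 promoter molecules and the FET4 antisense end were chosen after their values were seen.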

Additional observations from a re-analysis of the deposited data

Results flagged for a closer look

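ARN2 reads moved in opposite directions in capped and non-capped libraries. Its non-capped reads were 99 in glucose and 34 in galactose, a galactose over glucose ratio of 0.399 (0.262 to 0.595), counting every overlapping read, none of which covers the coding sequence. Capped reads counted in the same way were 10 and 59 standard and 109 and 349 long-enriched, with log2 ratios of 2.04 and 1.17. Of the 99 non-capped glucose reads, 52 lack the 3' part of the coding sequence. The difference was not tested, since there is 1 non-capped library per medium. The non-capped ARN2 reads came from 4 pairs of ends in glucose and 2 in galactose, with 52 and 29 reads on the most frequent pair. The part of such repeated pairs in the result was not tested.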

How the results depend on the processing

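No paired analysis was possible because the libraries are summed per column, and for the same reason no replicate could be left out. Over the alternatives run, between 4 and 7 iron uptake genes were higher and 1 was lower in each. FTR1 became the additional higher gene at a 1.5-fold threshold. Of 120 log2 ratios of single genes under other scalings and countings, 101 stayed within the main counting interval, 19 moved out of it and 0 changed sign for a called gene. The counts of all genes higher and lower moved to 351 and 56 with scaling by total reads, under which the median log2 ratio of all genes was 0.49 and 0.16 in place of 0.02 and 0.01. They moved to 126 and 31 with distinct pairs, 133 and 41 at 3-fold, 399 and 239 at 1.5-fold, 419 and 235 in the standard protocol alone and 420 and 151 in the long-enriched one alone. Genes with a shifted 5' UTR went from 2 to 0 with medians and to 0 with UTRs of at most 500 nt, and with distinct pairs were FIT2 and FIT3 in place of FIT3 and SIT1. At 20 reads in place of 50, 9 of 13 isoform comparisons were higher in galactose, where 5 of 9 had been. Within 10 nt, 1.38% of non-capped galactose reads and 1.58% of glucose ones lay near the capped 5' end, in place of 7.73% and 1.73%. Alternatives for the start division and for FET4 antisense reads were chosen after seeing the data. The FET4 antisense ratio ran from 8.83 to 19.6 in the standard and from 5.67 to 9.18 in the long-enriched protocol. Depth limits FIT1 and ARN1, and differences between cultures were not measured.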
